A study of Homo sapiens with 6 samples.

Results

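The genes described here are the human ZNF genes, those whose symbol is ZNF followed by a number only, with a mean of at least 5 TPM over the 6 libraries. TPM is a gene's share of all transcripts in a library after correction for gene length, scaled to the same total in every library. The table held 478 such symbols among 58051 genes, and 105 of them reached that mean, all annotated as protein coding. The other 373 had lower means, and 22 of these were listed at 0 in all 6 libraries. Means of the 105 genes ran between 5.07 and 183.9 TPM with a median of 11.1 TPM, and 46 of them lay under 10 TPM. ZNF516, ZNF749 and ZNF721 lay just outside the threshold at 4.94, 4.96 and 4.99 TPM, and ZNF827, ZNF451 and ZNF174 lay just inside it at 5.07, 5.07 and 5.14 TPM. The genes were thus chosen by their mean TPM over both groups, so the level is given as a description, while the difference between groups played no part in the rule. A gene low in one group could still enter through the other: 3 of the 105 averaged under 5 TPM in binding cells and 17 in non-binding cells. Such genes make up 6 of the 21 called higher below (ZNF134, ZNF189, ZNF266, ZNF480, ZNF544 and ZNF784) and 1 of the 6 called lower (ZNF750), so counts of calls over the set rest in part on the choice by level.

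Most ZNF genes encode C2H2 zinc finger proteins, in which each finger folds around a zinc ion and reads a few bases of DNA, so that a row of fingers recognises a longer site. A large share of them also carry a KRAB box, a short domain that recruits the co-repressor TRIM28, which in turn brings the histone methyltransferase SETDB1, HP1 proteins and the NuRD complex to silence transposable elements and genes. KRAB genes arose by repeated duplication and sit in clusters, above all on chromosome 19. Other proteins with a ZNF symbol bind RNA or ribosomes, and some have no classical finger at all.

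The cells were MDA-MB-231, an established line of triple-negative breast cancer with mesenchymal features, wild type in the labels. They had been stained with fluorescein-conjugated recombinant human FABP4, a fatty acid carrier best known from adipocytes, and sorted by flow cytometry. The FABP4 binding group and the FABP4 non-binding group had 3 libraries each, of the same genotype and the same treatment, cell sorting, with no unsorted or unstained group among the samples. The comparison asks how cells that bound FABP4 differ in RNA from cells that did not. Whether replicate libraries stem from separate cultures or separate sorts is not stated. The p-values set the difference between the groups against the spread between replicate libraries, which may be only technical. In these bulk samples fewer cells expressing a gene and less of its RNA per cell cannot be told apart. A TPM table keeps no sequencing depth, so no counting interval can be given.

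A gene entered the test when 3 or more libraries had 1 TPM or more of it, which held for 15574 genes and for all 105 ZNF genes. The 6 genes listed as present in this line, VIM, AXL, CD44, CAV1, MSN and ZEB1, were found in every library. In binding cells AXL (log2 change 0.98, limma adjusted p = 0.020), CAV1 (0.95, limma adjusted p = 0.021) and CD44 (0.59, limma adjusted p = 0.027) were higher. Without passing, VIM (0.16) and ZEB1 (0.56) stood above and MSN (−0.34) below in every binding library. Of the epithelial and luminal genes listed as low for this line ESR1 was listed at 0 in all 6, but GATA3 stood at 9.90 to 16.9 TPM in binding libraries, against 12.2 to 15.1 TPM in the non-binding ones, ERBB2 at 10.5 to 14.7 TPM, against 9.75 to 10.3 TPM, and EPCAM at 7.33 to 8.27 TPM, against 4.44 to 7.01 TPM. CDH1 had 2.89 to 4.15 TPM in binding libraries, against 6.02 to 7.29 TPM in non-binding libraries, and was lower (log2 change −0.77, limma adjusted p = 0.039). Transcripts of the mitochondrial genome took 9.99% to 11.2% of TPM in binding libraries, against 2.98% to 3.38% in non-binding libraries. The summed level of 24 epidermal keratinocyte genes was 2170 to 3890 TPM in binding libraries and 4614 to 6430 TPM in non-binding libraries, with 12 of 22 tested lower and 0 higher in binding cells. Leukocyte markers summed to 17.1 to 29.6 TPM in binding libraries, against 21.3 to 29.9 TPM in non-binding libraries, and endothelial markers reached at most 2.49 TPM in any binding library and 2.65 TPM in any of the others. The part of these differences in the results on ZNF genes was not tested.

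The sequences just upstream of 6 ZNF genes are shown because they belong to rises and falls described below, so that the composition of the promoters can be seen beside the values. Each is the 250 bases before the gene's start in RefSeq on GRCh38.p14, written 5′ to 3′ on the gene's own strand. They are, among genes that were higher in binding cells, ZNF428 (chr19:43619630-43619879, minus strand), ZNF580 (chr19:55640752-55641001, plus strand) and ZNF595 (chr4:53071-53320, plus strand). Among genes that were lower they are ZNF771 (chr16:30407356-30407605, plus strand), ZNF207 (chr17:32349907-32350156, plus strand) and ZNF148 (chr3:125374710-125374959, minus strand). In all 6 cases the window overlaps the gene's span in GENCODE release 29, since the 2 annotations place the start differently. The windows of ZNF580, ZNF771 and ZNF148 lie wholly inside that span and the window of ZNF428 almost wholly. Those of ZNF595 and ZNF207 lie mostly upstream of it. Capitals mark matches on either strand to 6 motifs, where neighbouring matches may overlap. The GC box is GGGCGG, the site of the SP and KLF families. The CCAAT box, spelled as its name, is that of the NF-Y complex. The ETS core is CCGGAAG, read by the ETS family of activators. The TATA box is TATAAA, the site of the TATA-binding protein. The E-box is CACGTG, a site of MYC and its relatives. The GA run is GGGAGGG, which ZNF281 and its relatives can read.
ZNF428: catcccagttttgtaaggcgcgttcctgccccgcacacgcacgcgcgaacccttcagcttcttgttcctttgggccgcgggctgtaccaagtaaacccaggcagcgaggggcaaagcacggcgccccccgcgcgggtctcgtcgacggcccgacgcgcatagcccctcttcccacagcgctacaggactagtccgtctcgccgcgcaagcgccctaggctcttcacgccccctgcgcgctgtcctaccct
ZNF580: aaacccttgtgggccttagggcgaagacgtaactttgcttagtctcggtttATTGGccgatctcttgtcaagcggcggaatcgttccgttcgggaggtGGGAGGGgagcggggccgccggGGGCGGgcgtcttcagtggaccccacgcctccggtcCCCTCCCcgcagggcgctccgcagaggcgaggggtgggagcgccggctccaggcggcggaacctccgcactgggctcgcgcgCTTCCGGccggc
ZNF595: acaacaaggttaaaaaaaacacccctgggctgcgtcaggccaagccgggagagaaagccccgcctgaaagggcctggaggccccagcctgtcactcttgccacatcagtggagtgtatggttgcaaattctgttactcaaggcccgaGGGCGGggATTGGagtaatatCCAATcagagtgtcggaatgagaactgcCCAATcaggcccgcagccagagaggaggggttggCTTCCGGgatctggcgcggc
ZNF771: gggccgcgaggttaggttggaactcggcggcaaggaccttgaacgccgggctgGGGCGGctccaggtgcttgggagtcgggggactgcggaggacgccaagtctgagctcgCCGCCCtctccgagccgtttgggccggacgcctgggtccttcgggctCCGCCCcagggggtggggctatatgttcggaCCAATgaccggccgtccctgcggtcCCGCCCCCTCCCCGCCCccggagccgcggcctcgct
ZNF207: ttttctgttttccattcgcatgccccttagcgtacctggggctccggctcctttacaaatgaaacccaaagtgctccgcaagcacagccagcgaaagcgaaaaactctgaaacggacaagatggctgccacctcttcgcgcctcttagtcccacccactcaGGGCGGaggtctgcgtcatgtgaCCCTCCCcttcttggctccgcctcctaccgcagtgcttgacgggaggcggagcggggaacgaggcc
ZNF148: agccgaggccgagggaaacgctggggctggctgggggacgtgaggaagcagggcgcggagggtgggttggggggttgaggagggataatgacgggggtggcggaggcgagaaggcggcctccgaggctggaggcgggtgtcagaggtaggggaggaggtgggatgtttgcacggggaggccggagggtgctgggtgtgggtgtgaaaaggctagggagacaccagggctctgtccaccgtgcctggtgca

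Of the 105 ZNF genes 90 had an entry in the RefSeq promoter table of 27305 genes. Those 27305 were not limited by level or gene type, whereas the ZNF genes are all protein coding with at least 5 TPM. The sets of windows are thus unlike, and whether the differences below are particular to ZNF genes was not tested. A GC box was found in 67.8% of the 90 windows and in 42.3% of all windows. The ETS core was found in 28.9% of the ZNF windows, against 8.82% of all windows, and the GA run in 37.8%, against 23.6%. A CCAAT box was found in 34.4% of the ZNF windows and 33.0% of all windows, whereas the TATA box (2.22% against 11.1%) and the E-box (1.11% against 6.49%) were rarer in ZNF windows. By direction, the GC box stood in 11 of 18 windows of genes higher in binding cells and in 3 of 4 of genes lower, and the ETS core in 5 of 18 and 0 of 4. ZNF771 had 5 GC boxes and ZNF595 had 3 CCAAT boxes, while the windows of ZNF428 and ZNF148 held none of the 6 motifs. A match is a run of letters in this window and says nothing of binding.

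In the comparison of the subpopulations, 21 of the 105 ZNF genes were higher in FABP4 binding cells, 6 were lower and 78 did not pass an adjusted p of 0.05 in limma with Benjamini-Hochberg adjustment over all tested genes, a split that turned to 6 higher and 17 lower when the libraries were scaled to a common median and to 6 and 13 under quantile normalization. Rescaling over nuclear protein-coding genes gave 30 higher and 7 lower ZNF genes, where 36.8% of the genes tested passed, 29.7% higher and 7.01% lower. A gene that did not pass is not thereby shown to be unchanged. Under the common median 6.18% of all tested genes were higher and 12.1% lower, and under quantile normalization 7.69% and 8%. The share of ZNF genes called, 25.7%, stood beside 26.7% of all tested genes (19.6% higher and 7.12% lower), and beside 36.1% of tested genes with a mean of at least 5 TPM (26.4% higher and 9.76% lower). The share of ZNF genes called was thus near the background, or under it at a like level. Every binding library exceeded every non-binding library for 46 ZNF genes, every one was below for 12, and the groups overlapped for 47. Over all tested genes the groups did not overlap for 52.2%, 38.6% above and 13.6% below. Among the 10327 tested genes of at least 5 TPM every binding library was above for 4744 and below for 1785. Both are larger shares than among the 105 ZNF genes.

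On the log2(TPM + 1) scale the median change of the 105 genes was 0.44, binding minus non-binding, with single changes between −0.98 and 1.36. Over all tested genes the median change was 0.36, so the ZNF median lay 0.09 above it, and 58 of 105 ZNF genes lay above the median of all genes. The sign of that distance depended on which genes were set side by side. All tested genes of at least 5 TPM had a median of 0.40, below that of the ZNF genes. Protein-coding genes of at least 5 TPM had a median of 0.47, above it. The 59 ZNF genes of at least 10 TPM had a median of 0.29, which was −0.065 relative to tested genes of all levels. Scaling to a common median shifts every change by the same amount. It moved the median of all genes to 0.04 and left the distance at 0.09 by construction. Quantile normalization moved the median of all genes to 0.11, and the ZNF median then lay 0.04 above it. The summed level of the 105 genes was 2482, 2370 and 2411 TPM in binding replicates 1, 2 and 3, against 2356, 1989 and 2375 TPM in non-binding replicates 1, 2 and 3. These sums overlapped between the groups. The median over the 105 genes stood at 15.4, 13.02 and 12.1 TPM in the binding libraries and at 10.3, 9.29 and 10.6 TPM in the non-binding libraries, without overlap. The median of log2(TPM + 1) over all tested genes did not overlap either. It was 3.76, 3.53 and 3.56 in the binding libraries, against 3.32, 3.26 and 3.31 in the non-binding libraries.

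**Figure D1:**
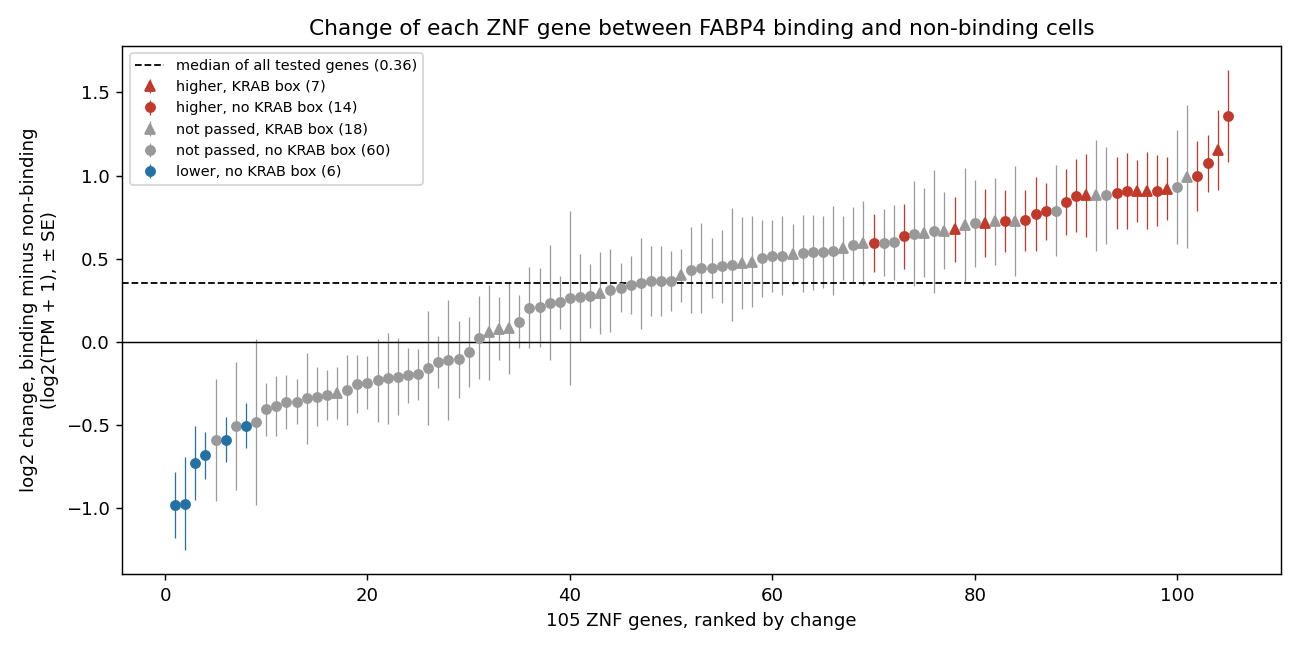
Each point is 1 of 105 ZNF genes, ranked by its change (x axis), with the log2 change binding minus non-binding and its standard error on the y axis. Red points are the 21 genes called higher, blue points the 6 called lower, and grey points the 78 that did not pass. Triangles are genes with a KRAB box, and the dashed line is the median of all tested genes at 0.36. The lower end holds no KRAB gene among its calls.

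The calls rested on the full set of libraries. Without non-binding replicate 2 only 2 ZNF genes passed, ZNF480 and ZNF395, and without non-binding replicate 3 none passed in limma, where 35 higher and 6 lower had an unadjusted p under 0.05 and the smallest adjusted p was 0.054. The calls over all tested genes dropped likewise, to 2.31% without non-binding replicate 2 (1.8% higher and 0.514% lower) and to 0.411% without non-binding replicate 3 (0.372% higher and 0.0385% lower). The other 4 single omissions left 11 to 14 higher and 2 to 6 lower ZNF genes: 14 and 6 without binding replicate 1, 12 and 4 without binding replicate 2, 11 and 3 without binding replicate 3, and 13 and 2 without non-binding replicate 1. All 27 called genes kept their direction in each of these 6 omissions, which had to be so because their groups did not overlap.

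The strongest rise was in ZNF428, a little-studied gene with a single finger on chromosome 19 (chr19:43607219-43619874, minus strand, hg38). ZNF428 had 50.1, 34.7 and 36.7 TPM in the binding libraries, against 17.3, 9.59 and 20.1 TPM in the non-binding libraries. Every binding library was above every non-binding one, and the ratio of the means was 2.59. Its log2 change was 1.36 (SE 0.28, adjusted p = 0.019, limma with Benjamini-Hochberg adjustment). SRRM5, on the opposite strand, overlaps 498 of its exonic bases but had a mean of only 0.121 TPM.

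Among genes with a KRAB box, ZNF480 was highest in its rise. It had 11.2, 8.50 and 7.73 TPM in binding cells and 3.14, 4.65 and 2.92 TPM in non-binding cells, again without overlap. Limma gave a log2 change of 1.15 (SE 0.24, adjusted p = 0.020). ZNF595, a KRAB gene with 17 fingers near the end of chromosome 4, had 12.4, 10.5 and 12.1 TPM in binding cells, against 5.08, 5.49 and 6.51 TPM in non-binding cells. Replicates were close in both groups, and the log2 change was 0.92 (SE 0.19, limma adjusted p = 0.019). ZNF544, a KRAB gene with 12 fingers, had 11.8, 7.85 and 7.18 TPM in binding cells, against 4.15, 4.24 and 4.21 TPM in non-binding cells. Its non-binding libraries were almost equal while binding replicate 1 stood above the other two, and the log2 change was 0.91 (SE 0.23, limma adjusted p = 0.029). ZNF394, which joins a KRAB box to a SCAN box, a dimerisation domain, had 16.6, 22.3 and 20.7 TPM in binding cells and 9.80, 8.88 and 11.6 TPM in non-binding cells. Here binding replicate 1 was the lowest of its group, and the groups were apart by a log2 change of 0.91 (SE 0.19, limma adjusted p = 0.019).

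The other rises among the 8 largest came from genes without a KRAB box. ZNF395, known for binding a regulatory region of the huntingtin gene, had 33.3, 28.5 and 26.9 TPM in binding cells, against 15.2, 11.7 and 13.7 TPM in non-binding cells. Its libraries were tight in both groups and its log2 change of 1.07 (SE 0.17) had the smallest adjusted p of the 105 genes, 0.013 in limma. It shares 41.7% of its 50-base windows with the annotated neighbour FBXO16, so its level depends on how shared reads were assigned. ZNF580 had 31.7, 22.4 and 28.0 TPM in binding cells and 14.5, 15.1 and 10.2 TPM in non-binding cells, a log2 change of 1.00 (SE 0.21, limma adjusted p = 0.020). ZNF784 had 12.3, 10.1 and 8.38 TPM in binding cells and 4.27, 5.46 and 5.15 TPM in non-binding cells, with a log2 change of 0.91 (SE 0.21, limma adjusted p = 0.024). Neither gene's groups overlapped.

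ZNF580 and ZNF784 lie in one stretch of chromosome 19 with 5 further genes of the set, in the order ZNF628, ZNF579, ZNF524, ZNF865, ZNF784, ZNF580 and ZNF581, between chr19:55476332 and chr19:55645622. ZNF628 was also higher, with a log2 change of 0.73 (SE 0.18, limma adjusted p = 0.028). The other 4 did not pass: ZNF579 had a log2 change of 0.52, ZNF524 of 0.44, ZNF865 of 0.33 and ZNF581 of 0.28. ZNF580 and ZNF581 overlap on the same strand, and ZNF581 shares 16.1% of its windows with ZNF580, so reads may have moved between them.

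The remaining 13 genes that were higher had log2 changes between 0.59 and 0.91. ZNF146, whose protein consists of little more than its 10 fingers, had 63.7, 41.4 and 45.9 TPM in binding cells, against 31.2, 27.1 and 23.6 TPM in non-binding cells. ZNF768, a factor that binds a family of mammalian repeats, had 78.9, 59.2 and 54.0 TPM in binding cells, against 43.4, 26.7 and 32.4 TPM in non-binding cells. ZNF185, a LIM domain protein of the actin cytoskeleton with no C2H2 finger found here, had 54.1, 39.2 and 42.0 TPM in binding cells, against 27.9, 23.2 and 25.7 TPM in non-binding cells. The groups did not overlap for any of the 3, and their log2 changes were 0.84, 0.90 and 0.78. The others were ZNF134, ZNF266, ZNF358, ZNF697, ZNF628, ZNF408, ZNF189, ZNF212, ZNF22 and ZNF787. Of the 21 genes that were higher, 15 had their highest value in binding replicate 1 and 11 their lowest in non-binding replicate 2. After scaling to a common median 6 of the 21 remained called: ZNF428, ZNF480, ZNF395, ZNF580, ZNF595 and ZNF185.

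Among the 6 genes that were lower, ZNF771 and ZNF750 fell most. ZNF771, with 8 fingers, had 12.1, 11.4 and 8.06 TPM in binding cells, against 19.4, 23.3 and 21.9 TPM in non-binding cells. Its groups were well apart, with a log2 change of −0.98 (SE 0.20, limma adjusted p = 0.018). On the opposite strand DCTPP1, a nucleotide pyrophosphatase gene, overlaps 666 of its exonic bases and averaged 54.9 TPM in binding cells, against 33.5 TPM in non-binding cells. Strand use in counting is not stated, so reads of the pair cannot be told apart in the overlap.

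ZNF750 encodes a factor of epidermal differentiation that acts downstream of p63 in keratinocytes. It had 2.54, 5.62 and 3.87 TPM in binding cells, against 10.3, 8.38 and 7.13 TPM in non-binding cells, and the groups did not overlap. The log2 change was −0.97 (SE 0.28, limma adjusted p = 0.038). The keratinocyte marker sum given above moved with it, lowest in binding replicate 1 (2170 TPM), where ZNF750 was lowest too, though it was highest in non-binding replicate 2 (6430 TPM) and ZNF750 in non-binding replicate 1. ZNF750 lies inside TBCD on the opposite strand with 0 shared exonic bases.

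The 4 other falls were in more abundant genes. ZNF207, also called BuGZ, which loads the checkpoint protein BUB3 at kinetochores, had 44.5, 75.9 and 73.7 TPM in binding cells, against 110.5, 90.0 and 116 TPM in non-binding cells. Binding replicate 1 was far below the others, and the log2 change was −0.73 (SE 0.22, limma adjusted p = 0.045). ZNF148, also called ZBP-89, which binds GC-rich promoter elements, had 28.0, 32.8 and 31.6 TPM in binding cells, against 48.7, 48.1 and 53.2 TPM in non-binding cells. Replicates were close in both groups, with a log2 change of −0.68 (SE 0.14, limma adjusted p = 0.018). ZNF362 had 38.9, 42.9 and 46.1 TPM in binding cells and 59.5, 67.2 and 66.8 TPM in non-binding cells, a log2 change of −0.59 (SE 0.14, limma adjusted p = 0.024). ZNF706, which encodes a single-finger protein of 76 residues, had 67.9, 80.0 and 82.9 TPM in binding cells, against 104.5, 107 and 116 TPM in non-binding cells. Its log2 change was −0.50 (SE 0.13, limma adjusted p = 0.032). None of these groups overlapped, and all 6 genes that fell remained called after scaling to a common median, whereas ZNF207 did not pass under quantile normalization (limma adjusted p = 0.068).

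**Figure D2:**
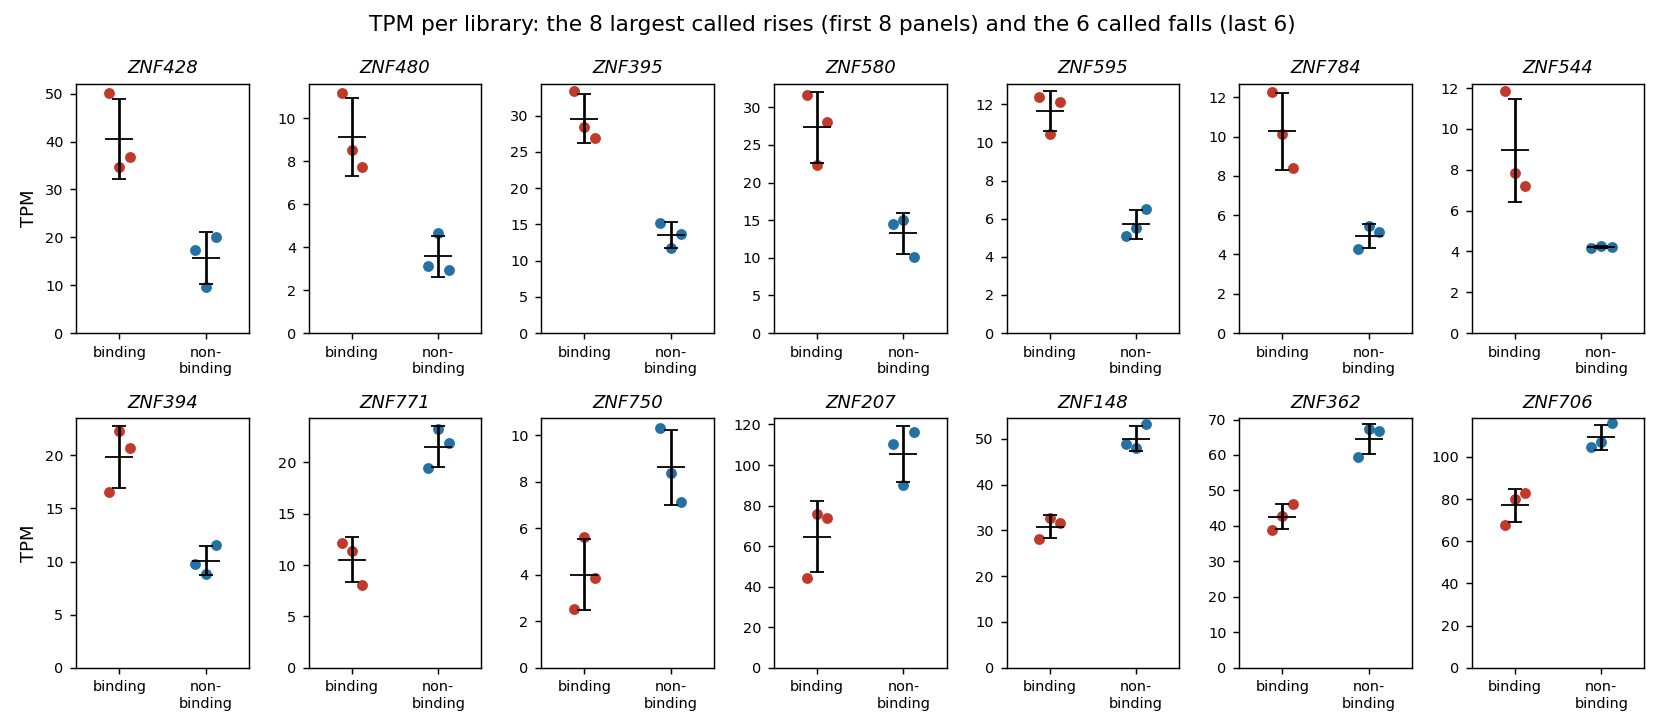
Each panel shows 1 gene, with TPM per library on the y axis from 0, FABP4 binding libraries in red on the left and non-binding libraries in blue on the right, 3 each. Horizontal bars are the mean and error bars the SD. The first 8 panels are the largest rises and the last 6 the genes that fell, and in no panel do the groups overlap.

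Under a common median 11 further ZNF genes passed as lower: ZNF638, ZNF609, ZNF131, ZNF652, ZNF282, ZNF106, ZNF143, ZNF330, ZNF326, ZNF740 and ZNF384. Their log2 changes without that scaling lay between −0.41 for ZNF384 and −0.12 for ZNF638, and between −0.72 and −0.44 with it. This scaling lowered every change by the same amount, so each of them stayed negative by construction.

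Of the 5 most abundant ZNF genes ZNF706 and ZNF207 were lower, as described above, and the other 3 did not pass. ZNF281, a GC-box binding factor related to ZNF148 and known from pluripotency and epithelial-mesenchymal transition, had the highest mean level. It had 61.3, 199 and 222 TPM in binding cells, against 253, 117 and 252 TPM in non-binding cells. Each group held 1 low library, and the log2 change of −0.48 (SE 0.50) turned to 0.10 without binding replicate 1. ZNF622, the human relative of a yeast factor that releases the last maturation factors of the large ribosomal subunit, had 280.1, 148 and 137 TPM in binding cells, against 128, 145 and 123 TPM in non-binding cells. Only binding replicate 1 stood apart, and the log2 change was 0.43 (SE 0.26, limma adjusted p = 0.22). ZNF513 had 43.4, 107 and 112 TPM in binding cells and 129.8, 77.1 and 151 TPM in non-binding cells, lowest in the same library of each group as ZNF281, with a log2 change of −0.51 (SE 0.39).

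Of the genes listed as oncogenes or members of chromatin complexes, 6 of 8 were in the set and none passed in limma, where 2 higher and 0 lower had an unadjusted p under 0.05, whereas ZNF516 and ZNF532 were under 5 TPM. ZNF217, a breast cancer oncogene amplified on chromosome 20 that works with CtBP and CoREST, had 39.9, 20.4 and 24.0 TPM in binding cells, against 13.96, 19.6 and 15.1 TPM in non-binding cells. The groups were just apart, and the log2 change was 0.71 (SE 0.26, limma adjusted p = 0.072). ZNF703, an oncogene of luminal breast tumours, had 20.9, 53.7 and 49.8 TPM in binding cells, against 49.2, 29.9 and 48.2 TPM in non-binding cells. Its low libraries were binding replicate 1 and non-binding replicate 2, and the log2 change of −0.11 (SE 0.36) turned to 0.31 without binding replicate 1 and to 0.01 without non-binding replicate 1. ZNF687 and ZNF592, partners in a complex with ZMYND8, had log2 changes of 0.44 and 0.12, the second of which turned to −0.20 under either scaling. ZNF652, a partner of the co-repressor CBFA2T3, had 8.39, 7.64 and 7.83 TPM in binding cells, against 8.98, 10.6 and 9.52 TPM in non-binding cells, a log2 change of −0.25 (limma adjusted p = 0.29). ZNF219, a partner of SOX9 in cartilage, had a log2 change of 0.21 that turned to −0.11 under the common median and −0.084 under quantile normalization.

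Among 7 listed sequence-specific regulators 6 were in the set, and ZNF148 alone passed, as lower. ZNF143, an activator of promoters of small nuclear RNA and many protein-coding genes, had 15.4, 17.7 and 14.8 TPM in binding cells, against 20.8, 16.9 and 23.6 TPM in non-binding cells, a log2 change of −0.33 (limma adjusted p = 0.19). Its close relative ZNF76 had a log2 change of 0.35 with overlapping groups. ZNF384, known from fusion genes in acute leukaemia, had 59.3, 71.6 and 83.8 TPM in binding cells, against 96.2, 85.4 and 102 TPM in non-binding cells. All binding libraries were below, and the log2 change was −0.41 (SE 0.16, limma adjusted p = 0.089). ZNF263, a KRAB and SCAN protein, had a log2 change of 0.29 that turned to −0.026 and −0.025 under the common median and quantile scalings.

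All 10 listed genes with roles in RNA, ribosomes, mitosis or the nucleolus were in the set, of which ZNF207 and ZNF706 were lower and none was higher in limma, with 0 higher and 3 lower at an unadjusted p under 0.05. ZNF598, the ubiquitin ligase that senses collided ribosomes, had 74.7, 54.5 and 56.6 TPM in binding cells, against 55.4, 47.8 and 42.3 TPM in non-binding cells, a log2 change of 0.34 (limma adjusted p = 0.16). ZNF330, a nucleolar protein, had 37.0, 38.8 and 35.2 TPM in binding cells, against 43.8, 48.4 and 51.2 TPM in non-binding cells, a log2 change of −0.36 (limma adjusted p = 0.079). ZNF326, which links elongating RNA polymerase to splicing, had 11.3, 10.3 and 12.04 TPM in binding cells, against 15.3, 14.2 and 14.6 TPM in non-binding cells, a log2 change of −0.36 (limma adjusted p = 0.12). For the last 2 all binding libraries were below the others without passing the test. The RNA-binding ZNF638 had a log2 change of −0.12, the double-stranded RNA binder ZNF346 of −0.34 and the splicing-associated ZNF830 of 0.67, all with overlapping groups. ZNF593, whose yeast relative accompanies the large ribosomal subunit, had 11.6, 4.65 and 2.24 TPM in binding cells, against 2.08, 6.74 and 4.59 TPM in non-binding cells. This spread was among the widest in the set, and its log2 change of 0.26 turned to −0.25 without binding replicate 1, −0.10 without non-binding replicate 1, and −0.054 and −0.022 under the common median and quantile scalings.

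Members of the set could be sorted by their encoded protein, translated from the GENCODE 29 transcripts. A KRAB box was found in 25 of the 105 proteins (23.8%), against 289 of the 369 other ZNF proteins translated (78.3%), so the level threshold kept mostly ZNF genes without one. Likewise 28 of the 105 genes (26.7%) lay on chromosome 19, against 242 of all 478 ZNF genes (50.6%). KRAB genes in the set had a median mean level of 7.77 TPM and the others of 14.6 TPM. The number of C2H2 fingers ran between 0 and 31 with a median of 9 in KRAB proteins and 6 in the others, and no finger of the classical spacing was found in 5: ZNF185, ZNF330, ZNF503, ZNF703 and ZNF750. The name zinc finger transcription factor therefore covers the set only in part, and the genes are called ZNF genes here.

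Of the 25 KRAB genes 7 were higher and none lower, with a median log2 change of 0.67. The share called higher, 28%, was near the 29.4% of all protein-coding genes of at least 5 TPM, of which 5.83% were lower, and 4 of the 7 reached the level threshold only through the binding group. Of the 80 without a KRAB box 14 were higher and 6 lower, with a median of 0.33. At an unadjusted p under 0.05 limma gave 16 higher and 0 lower KRAB genes, while 2 higher and 1 lower passed under the common median and under quantile normalization, and 11 higher and 0 lower after rescaling over nuclear protein-coding genes. The KRAB genes that were higher were ZNF480, ZNF595, ZNF544, ZNF394, ZNF266, ZNF189 and ZNF212. The summed level of the KRAB genes was 358, 297 and 293 TPM in binding libraries, against 237, 205 and 242 TPM in non-binding libraries, without overlap. ZNF274, a KRAB protein that brings SETDB1 to the 3′ ends of other zinc finger genes, had 9.23, 8.51 and 9.59 TPM in binding cells, against 6.71, 3.32 and 6.89 TPM in non-binding cells. Its groups did not overlap, and the log2 change was 0.66 (SE 0.27, limma adjusted p = 0.097). Of the 6 genes with a SCAN box 1 was higher, ZNF394, and none lower in limma (5 and 0 at an unadjusted p under 0.05), with a median of 0.63, and the other 5, among them ZNF174 at 0.79, did not pass.

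On chromosome 19, 11 of 28 ZNF genes were higher and none lower, with a median log2 change of 0.68, and on other chromosomes 10 of 77 were higher and 6 lower, with a median of 0.27. Limma gave 18 higher and 0 lower at an unadjusted p under 0.05 on chromosome 19, and 3 higher and 0 lower passed there under the common median, 2 and 0 under quantile normalization and 13 and 0 after rescaling over nuclear protein-coding genes. Other protein-coding genes of at least 5 TPM on chromosome 19 were also more often called higher, 250 of 553 (45.2%, median 0.58), than those elsewhere, 2347 of 8248 (28.5%, median 0.46). The share of ZNF genes called higher on chromosome 19, 39.3%, was thus no larger than that of their neighbours, while elsewhere it was 12.99%, below that of other genes. Within the other chromosomes 4 of 14 KRAB genes were higher and 0 lower, against 6 higher and 6 lower of 63 without a KRAB box. None of these differences between classes was tested.

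**Figure D3:**
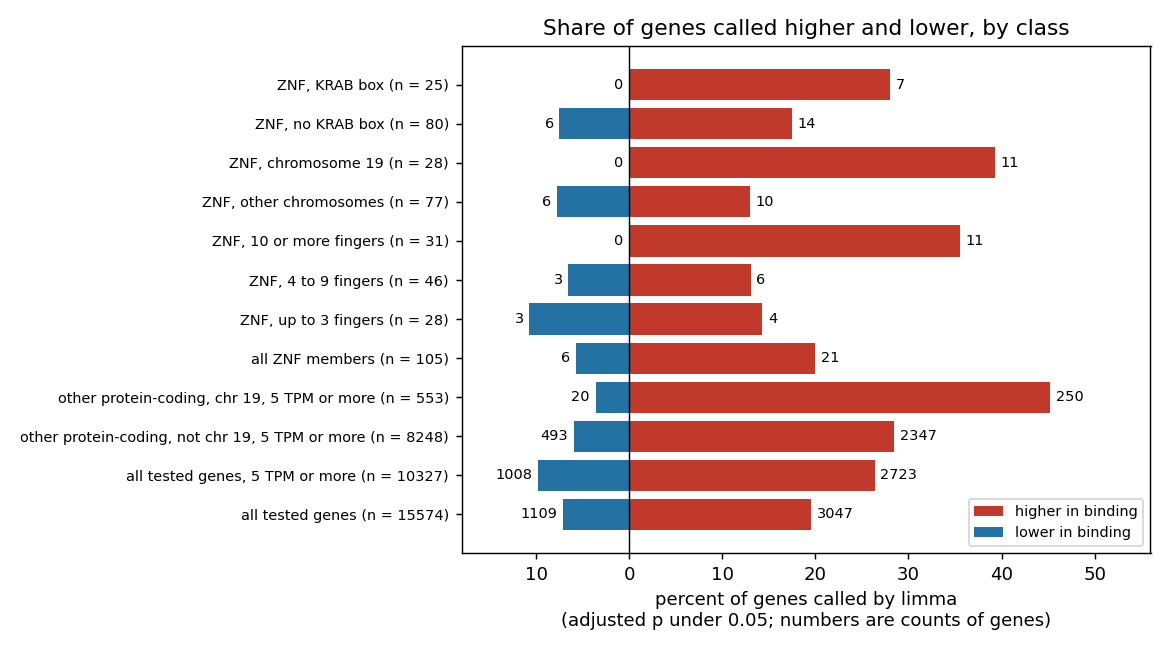
Bars give the percent of genes called higher (red, to the right) and lower (blue, to the left) in binding cells by limma, with the count of genes at each bar end and the class size n beside its name. The 7 upper bars split the 105 ZNF genes by KRAB box, chromosome and finger number, and the lower bars give all ZNF genes of the set, other protein-coding genes and all tested genes. No bar to the left is drawn for KRAB genes, chromosome 19 genes and genes with 10 or more fingers.

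Genes were also sorted by finger number. Of the 31 genes with 10 or more fingers 11 were higher and none lower in limma (18 and 0 at an unadjusted p under 0.05), with a median log2 change of 0.58. The share called higher was 35.5%, beside 29.4% of protein-coding genes of at least 5 TPM, and 2 were higher under the common median, 3 under quantile normalization and 12 after rescaling over nuclear protein-coding genes. Of the 46 with 4 to 9 fingers 6 were higher and 3 lower (median 0.32), and of the 28 with up to 3 fingers 4 were higher and 3 lower (median 0.08). Across the 105 genes Spearman's rho of the change was 0.30 with the number of fingers and −0.32 with the mean level, −0.13 with transcript length and 0.08 with GC content. Genes are not independent replicates, and the same 6 libraries lie behind every point. Level and change were also inversely related across 8906 protein-coding genes of at least 5 TPM, with rho at −0.15.

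The spread between replicates was itself shared by some members. ZNF281, ZNF513, ZNF800 and ZNF703 were each lowest in binding replicate 1 within the binding group and lowest in non-binding replicate 2 within the other. This pair of lowest libraries was found in 21 of the 105 genes (20%), ZNF207 among them, and in 12.2% of all tested genes of at least 5 TPM. For ZNF800 the values were 23.0, 47.5 and 44.4 TPM in binding cells and 68.1, 33.0 and 75.4 TPM in non-binding cells. Over the 105 genes the deviations of binding replicate 1 and non-binding replicate 2 from their group means correlated at 0.55, where the other 8 pairs of libraries across the groups ranged between −0.48 and 0.37, and the same 2 libraries stood at 0.034 over all tested genes. These values describe 1 set of genes in single libraries. Binding replicate 1 held the highest value of 53 of the 105 genes, and non-binding replicate 2 the lowest of 39. With both of these libraries left out 9 ZNF genes were higher and 7 lower, and the median change was 0.27.

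**Figure D4:**
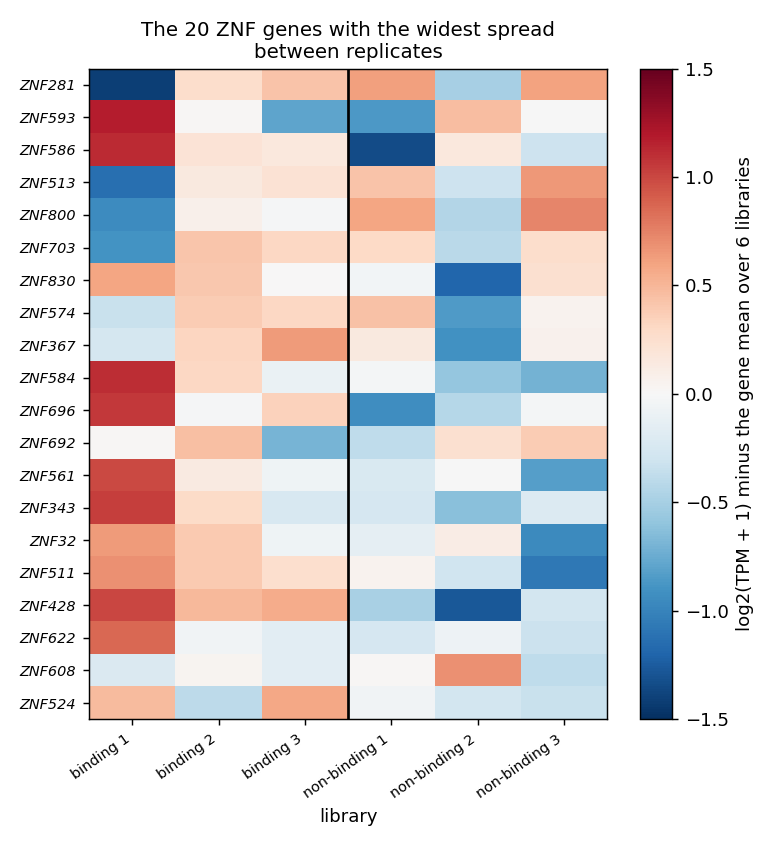
Colours give log2(TPM + 1) minus the gene's mean over the 6 libraries for the 20 ZNF genes with the widest spread between replicates of a group, with genes in rows and libraries in columns, binding left of the black line. ZNF281, ZNF513, ZNF800 and ZNF703 are blue in binding replicate 1 and non-binding replicate 2, and ZNF428 and ZNF584 are red in binding replicate 1.

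The KRAB partners were read from a list of 26 co-repressor genes, all tested. Of these 6 were higher (23.1%) and 4 lower (15.4%) in binding cells, with a median log2 change of 0.23. The share called, 38.5%, was near the 35.2% of protein-coding genes of at least 5 TPM (29.4% higher and 5.83% lower). Under the common median, however, 0 of the 26 were higher and 8 lower. Quantile normalization gave 1 and 4, and rescaling over nuclear protein-coding genes 8 and 6. TRIM28, the scaffold that KRAB boxes bind, had 217, 195 and 198 TPM in binding cells, against 131, 109.7 and 147 TPM in non-binding cells. Its log2 change was 0.66 (SE 0.14, limma adjusted p = 0.021), 0.63 under quantile normalization and 0.60 after rescaling over nuclear protein-coding genes, where it also passed, and 0.34 under the common median, where it did not (limma adjusted p = 0.10). The histone-binding NuRD subunit RBBP7 had 203, 243 and 250 TPM in binding cells, against 359, 362 and 378 TPM in non-binding cells, and its paralog RBBP4 had 43.8, 54.2 and 54.0 TPM in binding cells, against 86.5, 82.9 and 80.8 TPM in non-binding cells. Both fell, with log2 changes of −0.66 and −0.71 (limma adjusted p = 0.016 and 0.017). The other calls were higher for FAM208A (TASOR) and MPHOSPH8 of the HUSH complex, SMARCAD1, UHRF1 and DNMT1, and lower for MTA1 and CBX1. SETDB1 had 20.6, 18.5 and 20.8 TPM in binding cells, against 23.0, 26.8 and 26.4 TPM in non-binding cells, a log2 change of −0.33 (limma adjusted p = 0.13). Without non-binding replicate 2 or 3 none of the 26 passed in limma, where 6 higher and 5 lower, and 9 higher and 4 lower, had an unadjusted p under 0.05.

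Other zinc finger families at the same level are given for comparison, with no test of the difference. Of all tested genes with a mean of at least 5 TPM 26.4% were higher and 9.76% lower. Of 21 ZBTB genes, which pair fingers with a BTB domain, none was higher and ZBTB18 was lower in limma, with 6 higher and 1 lower at an unadjusted p under 0.05 and a family median of 0.28. Of 11 KLF genes, which bind GC-rich boxes, KLF10, KLF11 and KLF16 were higher and none lower (median 0.26). Of 3 ZKSCAN genes ZKSCAN5 was higher (median 0.64), and none of 4 ZFP genes or 2 ZSCAN genes passed. The counts moved with the threshold on the level: with a mean of at least 2 TPM 25 of 214 ZNF genes were higher (11.7%) and 6 lower (2.80%), with a median log2 change of 0.52, and with at least 10 TPM 13 of 59 were higher (22.0%) and 5 lower (8.47%), with a median of 0.29. Shares of all tested genes at 2 and 10 TPM are not given. The share called was 26.7% over all tested genes and 36.1% at 5 TPM or more, so these counts stand without a background of like level.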

How the data were processed

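The authors deposited TPM values per gene for 6 libraries, in columns named by the labels, and each column sums to 1000000, so the depth is unknown. Per the submitters' processing notes the build was hg38. Aligner, quantifier, annotation and strand use were not given in the sources used here. RNA was ribosomal RNA-depleted and randomly primed, per the labels' protocols. TPM divide by length and by the library's total, so a class that grows lowers all others, and reads shared between copies may have been divided or dropped.

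From these values limma 3.58.1 (R 4.3.3), fitted with an intensity trend, compared log2(TPM + 1) of 3 binding against 3 non-binding libraries for the 15574 genes that reached 1 TPM in 3 or more of them, no covariate, Benjamini-Hochberg adjustment over all of them at 0.05. The design named a count test only for counts, which the table does not hold. Fold changes on this scale understate those of low genes.

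The ZNF genes, the lists and the tests were chosen with earlier results of these data known. Named genes were the 5 highest by level, up to 8 largest rises and falls past the threshold without overlap, listed genes with known roles whatever they showed, 3 genes on each side of the level threshold and 3 co-repressors with the smallest p; others were named after their values were seen. Gene types, hg38 positions and transcripts came from GENCODE 29, which held 99.0% of identifiers and may not be the submitters' annotation. Proteins were translated from it and searched for fingers (C, 2 to 4 residues, C, 12 residues, H, 3 to 5 residues, H), a KRAB pattern (8 of 20 positions) and a SCAN box. Promoter windows came from RefSeq, GRCh38.p14. Of the 105 genes 65 shared no 50-base window with another gene, 11 shared over 10% and 0 over 50%, and 59 had a gene on the opposite strand.

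The scripts were tested on simulated data with known answers. Alternatives were scaling to a common median (equal library medians of log2(TPM + 1) over tested genes), quantile normalization, rescaling over nuclear protein-coding genes, pseudocounts of 0.1 and 5, no filter and a filter at 5 TPM, no trend, a replicate block and leaving out each library. Leaving out binding replicate 1 and non-binding replicate 2 together was chosen after seeing the data.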

Additional observations from a re-analysis of the deposited data

How the results depend on the processing

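Counts below are higher and lower in binding cells. Scaling to a common median gave 6 and 17 ZNF genes, 0 and 8 co-repressor genes and 962 and 1890 of all genes, with a ZNF median of 0.13. Quantile normalization gave 6 and 13 ZNF genes, 1 higher co-repressor gene and 1197 higher of all genes, with a ZNF median of 0.14. No filter gave 8 higher ZNF genes, 2 and 2 co-repressor genes, 1373 and 500 of all genes and a ZNF median 0.28 above that of all genes. No intensity trend gave 2 lower ZNF genes, 3 and 2 co-repressor genes and 1992 and 567 of all genes. Rescaling over nuclear protein-coding genes gave 30 and 7 ZNF genes and left the ZNF median 0.013 above that of all genes. Both pseudocounts left 21 and 6 ZNF genes, and the filter at 5 TPM gave 26 and 6. Leaving out 1 library each gave 0 to 14 higher and 0 to 6 lower ZNF genes, 0 to 5 higher and 0 to 4 lower co-repressor genes, and 58 to 1975 higher and 6 to 888 lower of all genes, while the ZNF median ran between 0.38 and 0.48 and its distance from that of all genes between 0.03 and 0.12. Leaving out binding replicate 1 and non-binding replicate 2 together gave 9 higher ZNF genes, 3 higher co-repressor genes, 1874 higher of all genes and a ZNF median of 0.27.

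The cause of these shifts was not tested. All 27 called ZNF genes kept their direction in all 16 alternatives. Their groups did not overlap, so leaving out libraries or changing the pseudocount could not turn them. The filter, trend and block settings leave the change itself as it is. The call was kept by 12 of the 27 under the common median and by 11 under quantile normalization. Of the genes that fell, ZNF207 lost its call under quantile normalization, no filter, no intensity trend and the replicate block (adjusted p = 0.068, 0.094, 0.076 and 0.051), ZNF750 under the last 3 of these, and ZNF362 and ZNF706 under no intensity trend. Among the named genes, the log2 changes that turned were all of genes that had not passed. Under the common median and quantile normalization these were ZNF219 (−0.11 and −0.084), ZNF263 (−0.026 and −0.025), ZNF592 (−0.20 and −0.20) and ZNF593 (−0.054 and −0.022). With 1 library left out the change ran between −0.85 and 0.10 for ZNF281, −0.25 and 0.72 for ZNF593, −0.35 and 0.31 for ZNF703 and −0.14 and 0.026 for ZNF827, and with both libraries named above left out it was 0.085 for ZNF703.

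Replicate numbers are shared between the groups. Deviations of same-numbered libraries from their group means correlated at 0.03, −0.02 and 0.03 over all tested genes, so the numbers were not taken as pairs. With the replicate number as a block 22 ZNF genes were higher and 4 lower, and 3174 and 1132 of all genes, against 21 and 6, and 3047 and 1109, without it. The depth behind TPM is unknown, so the counting error of genes near 5 TPM could not be given.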

Other observations

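ZNF genes below the level threshold are given as values. Of the 373 ZNF genes with a mean under 5 TPM, 194 were tested, of which 148 encode a KRAB box. In limma with Benjamini-Hochberg adjustment 4 were higher in binding cells and none lower, 2.06% against 26.7% of all tested genes, with 40 higher and 1 lower at an unadjusted p under 0.05, and their median log2 change was 0.49. Every binding library exceeded every non-binding library for 75 of the 194, and every one was below for 1, that is 38.7% and 0.515%, against 38.6% and 13.6% of all tested genes. All tested genes are no background of a like level here, since 10327 of the 15574 had a mean of at least 5 TPM. Among those 10327 every binding library was above for 4744 and below for 1785, and 36.1% were called. These are larger shares than over all tested genes, so tested genes under 5 TPM alone had smaller ones, whose values are not given. The ZNF genes called higher here were ZNF425, ZNF184, ZNF12 and ZNF239.

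ZNF425 had 6.33, 4.36 and 2.81 TPM in binding cells, against 1.08, 1.17 and 0.718 TPM in non-binding cells, a log2 change of 1.42 (limma adjusted p = 0.022). ZNF184 had 4.29, 3.44 and 5.53 TPM in binding cells, against 2.05, 0.554 and 1.98 TPM in non-binding cells, a log2 change of 1.15 (limma adjusted p = 0.042). ZNF12 had 10.4, 4.72 and 5.21 TPM in binding cells, against 2.11, 3.10 and 2.83 TPM in non-binding cells, a log2 change of 1.02 (limma adjusted p = 0.045). ZNF239 had 4.75, 6.17 and 6.42 TPM in binding cells, against 2.23, 3.79 and 1.76 TPM in non-binding cells, a log2 change of 0.95 (limma adjusted p = 0.041). None of these groups overlapped.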
